A study of Caenorhabditis elegans with 2 samples.

Results

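The histone genes of Caenorhabditis elegans were examined for binding by NFYB-1. The members were the protein-coding genes whose Ensembl symbol is his- or hil- followed by a number, together with htz-1, on the WBcel235 assembly. They numbered 81 of 19973 protein-coding genes on the 6 nuclear chromosomes. Their Ensembl symbols were not unique, since 36 members shared a symbol with another member, so each member was followed by its gene ID and is named here by its RefSeq symbol (81 of 81 matched). Of the 81, 65 were clustered genes, with another his- gene within 2 kb and no variant or linker product. The other 16 were 9 linker histone (H1) genes, 5 genes of the H3 variant H3.3, the H2A.Z gene htz-1, and his-73, which was annotated as a histone-fold protein and stood alone.

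ChIP-seq, in which DNA that comes down with a protein is sequenced, was run on whole young adult worms of strain RW12190, as 2 biological replicates of 1 group. Per the labels, CRISPR put a TY1, EGFP and 3xFLAG tag into nfyb-1 at its own locus (allele st12190, on chromosome II), and chromatin was precipitated with an antibody against GFP. Worms were bleached, held as starved L1 larvae to synchronise them, and taken at 65 hours, and chromatin was sonicated to between 200 and 800 bp. Both replicates carried the tag, the values are averages over all tissues of the worm, and a control experiment named in the labels was not used here.

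NF-Y is a transcription factor of A, B and C subunits that recognises the CCAAT box, and its B and C subunits dimerise through histone-fold domains like those of H2B and H2A. Core histones H2A, H2B, H3 and H4 package new DNA, and in C. elegans their genes lie in many copies, mostly as divergent pairs that start back to back from a short spacer. Linker histones bind DNA between nucleosomes, and the variants H3.3 and H2A.Z can be placed into chromatin outside replication. In vertebrates, CCAAT boxes are a known element of many histone promoters.

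Bound genes were those with a summit of the main list in the start window, which ran from 500 bp upstream of an annotated start to 200 bp past it. The main list was the conservative whole-series list that the authors kept after an IDR analysis (irreproducible discovery rate), which scores whether a region ranks alike in repeated calls. Of the 81 histone genes, 10 were bound (12.3%), against 7.41% of all protein-coding genes. The bound genes were his-35, his-61 and his-68 (H2A), his-41 and his-62 (H2B), his-37 and his-67 (H4), his-72 (H3.3), htz-1 (H2A.Z) and his-24 (H1). None of the 15 H3 genes was bound, while 3 of 17 H2A, 2 of 16 H2B and 2 of 16 H4 genes were. Among clustered genes 7 of 65 were bound (10.8%), and among the isolated, linker and variant genes 3 of 16 (18.8%). All 44 histone windows that were 50% or more repeated elsewhere in the genome belonged to clustered genes. Below 50% the clustered share was 7 of 21 (33.3%), so the order of the 2 classes depended on repeated windows. The bound clustered genes his-35, his-37 and his-41 have 2 exons and annotated untranslated regions. Histone genes with annotated untranslated regions were bound in 6 of 17 cases (35.3%). Those without were bound in 4 of 64 (6.25%), below the 7.41% of all genes, and 39 of these 64 had windows 90% or more repeated elsewhere in the genome. The 10 bound genes lay in 6 of 31 loci, where a locus joins members within 2 kb of each other. No test was run between classes, and pairs that share a region do not count as separate events.

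**Figure D1:**
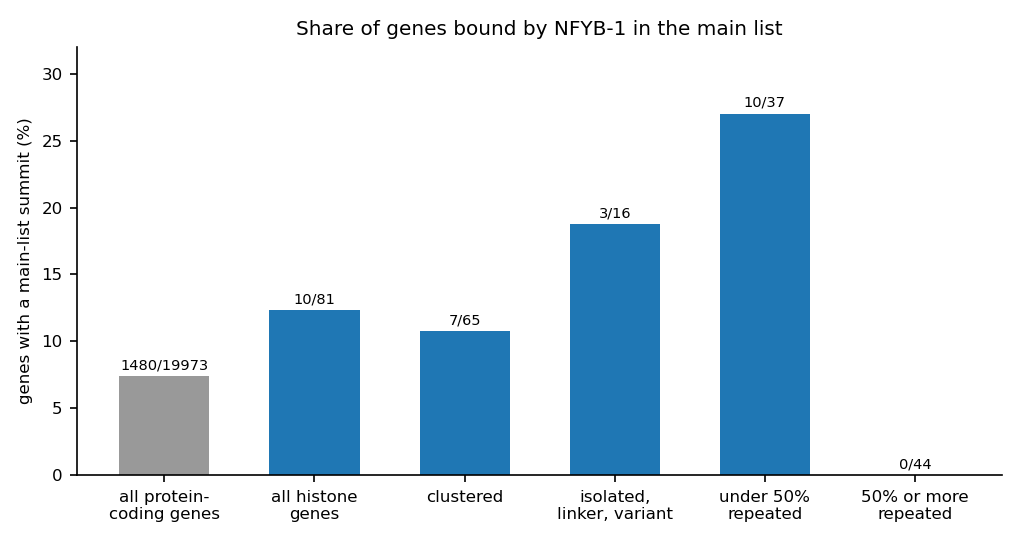
Bars give the percentage of genes with a main-list summit in the start window, and the numbers above them are bound genes over genes in the class. All protein-coding genes stand at 7.41% and histone genes at 12.3%, while the 44 histone genes with 50% or more of their window repeated elsewhere in the genome include no bound gene.

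The sequences under the summits are shown first, since the regions differ in what they hold. Each run is read from the WBcel235 genome within 100 bp of the summit and ends before the annotated start of any member. Capitals mark, on either strand, the NF-Y box CCAAT, the TATA box TATAAA, a GC-rich element CTCCGCC found in many histone windows, and GTGTCCC. They also mark a 14-base pattern around the last of these, which is T and GTGTCCC followed by any base and GCAGG. Patterns on the other strand appear as their reverse complements. The his-37 run is chrV:9546914-9547104, the his-62/his-61 run chrIV:7486300-7486500 and the his-41/his-35 run chrV:9545324-9545524, all on the plus strand. The htz-1 run is chrIV:4445781-4445981 and the his-24 run chrX:14490023-14490093, both on the plus strand, and the his-72 run is chrIII:12369083-12369283 on the minus strand.
his-37: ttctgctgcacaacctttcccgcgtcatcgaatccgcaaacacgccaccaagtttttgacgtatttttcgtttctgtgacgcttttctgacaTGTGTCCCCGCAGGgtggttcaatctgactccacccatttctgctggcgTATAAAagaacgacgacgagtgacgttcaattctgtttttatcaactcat
his-62/his-61: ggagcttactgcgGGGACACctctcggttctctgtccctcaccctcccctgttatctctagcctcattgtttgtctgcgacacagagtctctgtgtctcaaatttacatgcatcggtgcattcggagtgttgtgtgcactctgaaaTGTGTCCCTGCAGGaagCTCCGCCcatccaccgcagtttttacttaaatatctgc
his-41/his-35: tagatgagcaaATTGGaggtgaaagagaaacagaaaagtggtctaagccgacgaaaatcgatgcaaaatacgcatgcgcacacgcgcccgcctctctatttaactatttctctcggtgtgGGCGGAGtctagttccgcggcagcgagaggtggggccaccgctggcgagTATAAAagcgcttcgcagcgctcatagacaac
htz-1: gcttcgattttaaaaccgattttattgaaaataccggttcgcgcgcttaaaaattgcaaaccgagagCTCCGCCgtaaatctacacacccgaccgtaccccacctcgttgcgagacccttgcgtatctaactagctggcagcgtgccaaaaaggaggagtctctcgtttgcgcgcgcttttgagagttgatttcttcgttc
his-72: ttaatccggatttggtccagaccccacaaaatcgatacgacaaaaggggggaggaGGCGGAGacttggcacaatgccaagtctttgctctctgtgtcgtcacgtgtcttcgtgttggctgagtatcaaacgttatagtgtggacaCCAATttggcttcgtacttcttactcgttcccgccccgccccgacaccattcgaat
his-24: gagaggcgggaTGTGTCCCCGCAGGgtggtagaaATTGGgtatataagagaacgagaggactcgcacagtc

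The H4 gene his-37 carried the strongest region of any histone gene. Its region, chrV:9546888-9547144, had a signal of 524 in the main list, 237 in replicate 1 and 291 in replicate 2 (264 ± 38.0, mean ± SD, n = 2). Signal is the peak caller's own value for a region, on a scale that is not stated, and main-list and replicate values should not be set against each other. The summit lay 91 bp upstream of the start. The region ranked 109 in the whole main list of 3890 regions. Of the 3879 nuclear regions 97.4% were lower, and it was in the thresholded list of each replicate. The 191 bases shown above held the 14-base pattern and a TATAAA closer to the start, and no CCAAT.

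The divergent pair his-35 (H2A) and his-41 (H2B) lay beside his-37 in a locus of 3 genes, all of them bound. Its region, chrV:9545236-9545611, had a main-list signal of 100, with 40.8 in replicate 1 and 60.4 in replicate 2 (50.6 ± 13.9, mean ± SD, n = 2). The replicate 1 summit was 212 bp from that of the main list and did not lie between the starts of the pair, whereas the replicate 2 summit was 2 bp away. The mean and SD therefore join summits at different places. The region was in neither replicate's thresholded list, and the other whole-series list did not hold a summit in either window. Its IDR score was 872, where 1000 is the highest and 830 the lowest in the main list. The main summit lay 112 bp upstream of his-41 and 136 bp upstream of his-35.

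The pair his-67 (H4) and his-68 (H2A) was the only divergent pair of those types among 31 divergent pairs of histone genes. Its region, chrI:9988847-9989222, had a main-list signal of 233, with 99.7 in replicate 1 and 152 in replicate 2 (126 ± 37.3, mean ± SD, n = 2). Replicate 2 was the higher, as it was at every region that bound a histone gene except the stronger one at his-72, though by little at his-61/his-62. Over 3825 main regions with a ranked region in each replicate, replicate 2 exceeded replicate 1 by a median of 0.24 on the log2 scale, and each SD includes any such offset. The region was in both replicates' thresholded lists, and its summit lay 97 bp upstream of his-68 and 272 bp upstream of his-67.

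The pair his-61 (H2A) and his-62 (H2B) had the lowest main-list signal of the bound pairs. Its region, chrIV:7486212-7486587, reached 99.2 in the main list, 53.2 in replicate 1 and 53.3 in replicate 2 (53.3 ± 0.103, mean ± SD, n = 2). The replicates were nearly equal, yet the region was in neither thresholded list, with a main-list score of 992. The summit lay 145 bp upstream of his-62 and 183 bp upstream of his-61. The same locus held his-60 (H4) and his-59 (H3), which were not bound.

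The variant genes included the second strongest region. At htz-1, which encodes the H2A variant H2A.Z, the region chrIV:4445816-4445975 had a main-list signal of 313, with 146 in replicate 1 and 181 in replicate 2 (163 ± 24.3, mean ± SD, n = 2), and was in both replicates' lists. Its summit lay 335 bp upstream of htz-1 but 141 bp from the start of wapl-1, so which of these genes it belongs to cannot be told apart. A weaker region, chrIV:4445895-4446270, had its summit 133 bp upstream of htz-1 and a main-list signal of 48.3. It overlapped the first and matched the same region in each replicate, with replicate summits 172 and 194 bp away, so it has no replicate values of its own.

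At his-72, an H3.3 gene, the region chrIII:12368995-12369370 lay 133 bp upstream of a start, with a main-list signal of 140, 102 in replicate 1 and 64.5 in replicate 2 (83.4 ± 26.7, mean ± SD, n = 2). Replicate 1 was the higher here, and the region was in the thresholded list of replicate 1 alone. A further region inside the gene, chrIII:12368344-12368719, had its summit 368 bp upstream of another annotated start and a main-list signal of 104, with 64.4 and 66.0 in replicates 1 and 2. It was in neither replicate's list. The other H3.3 genes were not bound, and their highest whole-series ranked signals were 50.4 at his-71, 39.4 at his-70, 36.9 at his-69 and 21.4 at his-74.

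At his-24, a linker histone gene, the region chrX:14489935-14490310 had a main-list signal of 130, with 52.0 in replicate 1 and 82.9 in replicate 2 (67.4 ± 21.9, mean ± SD, n = 2). It was in the thresholded list of replicate 2 alone. Its summit lay 29 bp downstream of the start, the only bound summit on that side. None of the 8 hil- genes was bound, and only hil-4 and hil-7 had a ranked whole-series region in the window, at 76.0 and 30.8.

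**Figure D2:**
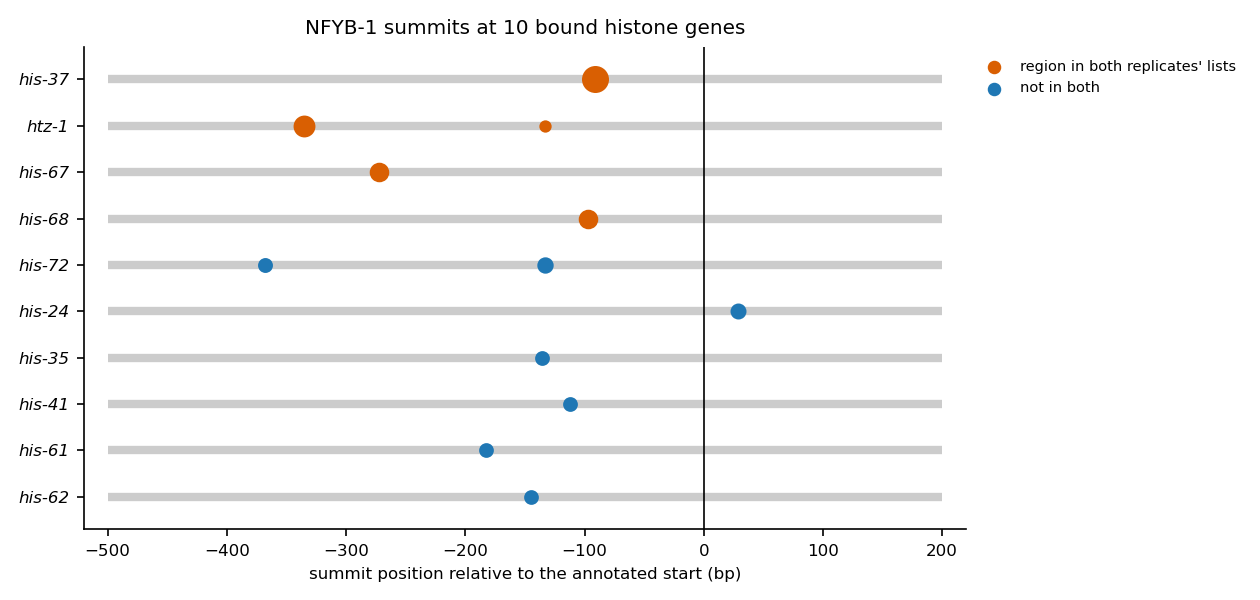
Each row is a bound histone gene and each point a main-list summit at its distance from the annotated start (bp), with point area growing with main-list signal and the grey bar marking the window. Summits sit between 368 bp upstream and 29 bp downstream, and both htz-1 points are matched to the same region in each replicate.

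Agreement between the lists was limited. In the thresholded list of replicate 1, 5 histone genes were bound (his-37, his-67, his-68, his-72 and htz-1), against 3.68% of all genes in that list. In that of replicate 2, 5 were bound (his-24, his-37, his-67, his-68 and htz-1), against 5.12% of all genes. Main regions that overlapped both replicates' lists bound 4 histone genes, his-37, his-67, his-68 and htz-1, where 3.05% of all genes were bound that way. The other whole-series list also bound 10 histone genes, against 7.58% of all genes, of which 8 were shared with the main list. It gained the divergent pair his-1 (H4) and his-2 (H3) and lost his-35 and his-41.

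Weaker signal was read from the ranked lists, which hold regions whether or not they passed the IDR threshold. A whole-series ranked region overlapped the window of 40 of 81 histone genes (49.4%), against 60.0% of all protein-coding genes. Where there was a region, the median of the highest signal was 72.7 over histone genes and 51.3 over all genes. Of the unbound genes, his-15 (H2B) had the highest whole-series value at 96.9, with 56.0 in replicate 1 and 46.1 in replicate 2. Its region was in the main list, but the summit lay 670 bp upstream.

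The next 9 unbound genes were 4 divergent pairs of H3 and H4 genes and hil-4. The pair his-5 and his-6 had a whole-series ranked signal of 89.7, with 36.3 in replicate 1 and 46.8 in replicate 2, and his-59 and his-60 had 87.0, with 55.6 and 43.3. For his-1 and his-2 the whole-series value was 84.7, with 54.4 in replicate 1 and 47.0 in replicate 2. For his-63 and his-64 it was 72.9, with 33.9 and 45.7, and for hil-4 it was 76.0, with 26.6 and 26.5. The whole-series values of these 4 pairs, from 72.9 to 89.7, lay below those of the bound pairs his-61/his-62 and his-35/his-41. In replicate 1, his-59/his-60 (55.6) and his-1/his-2 (54.4) lay above both bound pairs (53.2 and 40.8). His-5/his-6 and his-63/his-64 lay below both there. In replicate 2 all 4 pairs lay below both bound pairs (53.3 and 60.4). The replicates did not place the 4 pairs in the same order. The signals given for the 4 pairs are of any region that overlaps a window. In the whole-series list only that of his-5/his-6 had its summit between the starts, as those of the bound pairs did. In replicate 1 the bound pair his-35/his-41 had no summit between its starts. Between the starts of his-59 and his-60 the whole-series value was 24.8. His-1/his-2 and his-63/his-64 had no whole-series summit there.

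**Figure D3:**
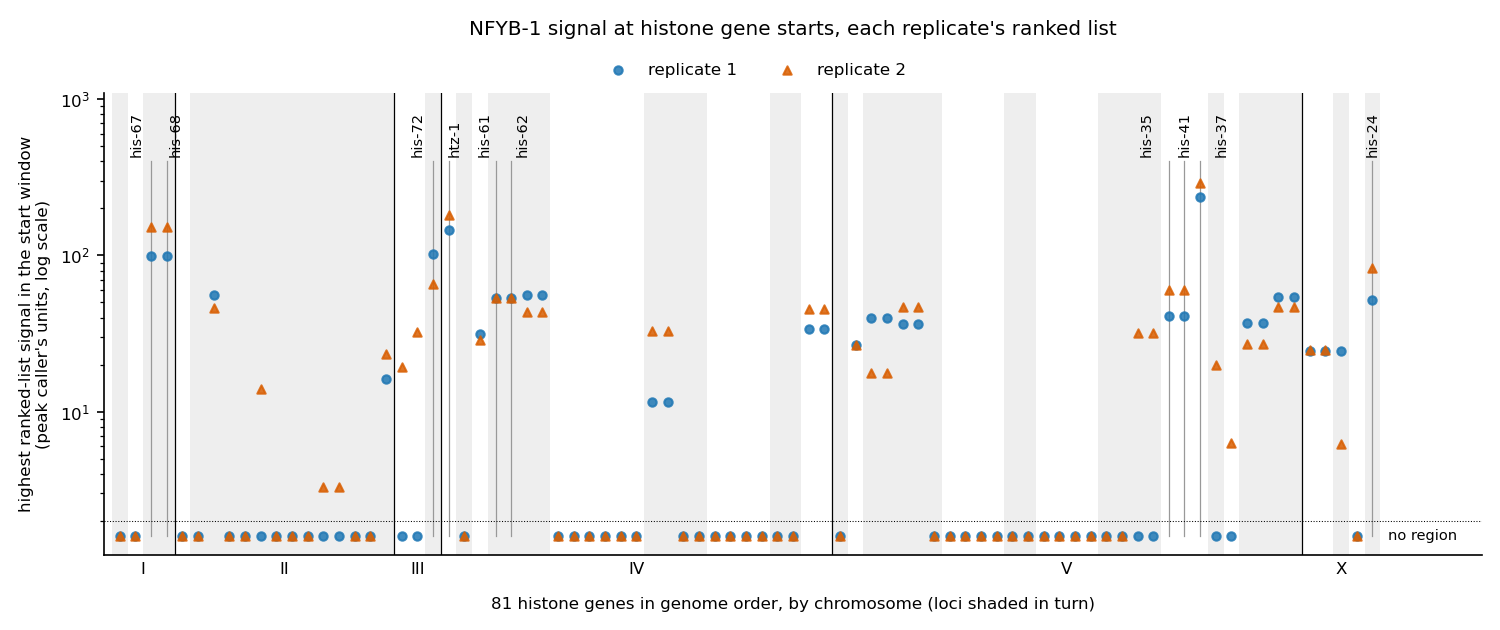
Each histone gene in genome order has the highest ranked-list signal in its start window (peak caller's units, log scale) in replicate 1 (circles) and replicate 2 (triangles), with genes that have no region on the lowest row and the 10 bound genes named. The highest pair of points is his-37 at 237 and 291, and long runs of neighbouring genes on chromosomes IV and V have no region in either replicate.

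The window has an edge, and several clustered genes lay near it. Among bound genes the summits farthest upstream of a start were those of his-72 (368 bp), htz-1 (335 bp) and his-67 (272 bp). Outside the window on the upstream side, the unbound genes with the nearest main summits were his-15 (670 bp) and his-65 (757 bp). On the downstream side they were his-16 (442 bp), his-66 (451 bp) and his-57 (523 bp). With the window reaching 1000 bp upstream, 14 histone genes were bound, against 9.61% of all genes, and his-15, his-58, his-64 and his-65 were the 4 gained. Within the narrower span of 250 bp upstream to 100 bp downstream 9 remained, without his-67, against 4.58% of all genes. Counting any base of a region gave 11, with his-15 added, against 8.78%. Counting only the gene with the nearest start gave 7, without his-35, his-61 and his-67, against 6.31%. With 1 start per gene the same 10 were bound, against 6.71%. At a score of 1000, 6 were bound, without his-35, his-41, his-61 and his-62, against 5.75%.

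The divergent pairs shared an arrangement with short spacers, and 3 of the 31 were bound in the main list. Of these 31 pairs, 16 joined an H2A and an H2B gene with spacers of 227 to 327 bp (median 292), and 2 of them were bound. Another 14 joined an H3 and an H4 gene with spacers of 234 to 321 bp (median 255), and none was bound in the main list, while the other whole-series list bound his-1/his-2. His-67/his-68 had the longest spacer, at 368 bp. A whole-series ranked summit lay between the starts in 6 of 31 pairs. Genes with a divergent protein-coding start within 1 kb were bound in 14.4% of cases over the whole genome, and histone genes with a divergent histone start in 6 of 62 (9.68%). These 2 sets differ in repeated sequence. Of the 62 histone genes, 44 had windows 50% or more repeated elsewhere in the genome, and none of the 44 was bound. Over the whole genome 135 of 3539 genes with a divergent start had such windows.

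Many of the spacers are copies of each other. The 31 pairs had 21 distinct spacer sequences. For each window the share of its 36-base stretches that occur elsewhere in the genome was counted. In 44 of 81 histone genes the share was 50% or more, and in 40 it was 90% or more. Bound genes numbered 10 of 37 below 50% (27.0%) and 0 of 44 at or above it. Ranked whole-series regions were in 28 of the 37 windows below 50% and in 8 of the 40 at or above 90%.

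The same count in other genes showed few regions where repeats were high. Of 247 other protein-coding genes with 90% or more repeated stretches, 1 was bound and 22 had a ranked region. Of 19374 other genes below 50%, 7.53% were bound. Among clustered histone genes below 50%, 7 of 21 were bound. How the authors treated reads that fit several places is not given in the sources used here, and the part of repeated sequence in the unbound calls was not tested. An unbound call at a repeated window therefore does not show that NFYB-1 was absent there.

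**Figure D4:**
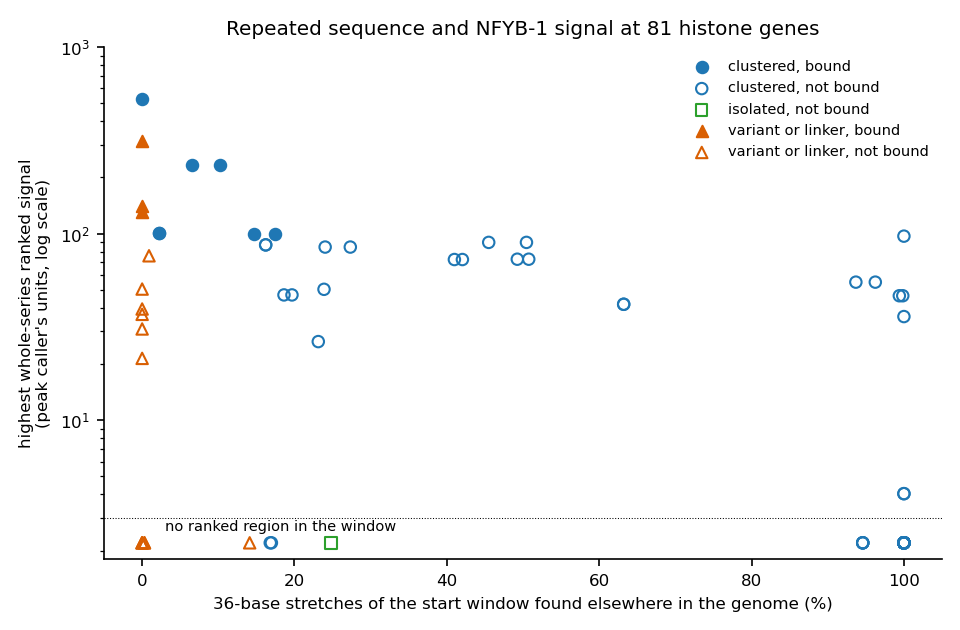
Each point is a histone gene, with the percentage of 36-base stretches of its window found elsewhere in the genome against its highest whole-series ranked signal (peak caller's units, log scale), genes with no ranked region lying below the dotted line. Filled points are bound genes, and all 10 lie below 50% repeated.

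Both kinds of repeated pair are shown by spacers of the chromosome II cluster of 13 genes, where no gene was bound and 5 had a ranked region. The spacer of his-12 (H2A) and his-11 (H2B), chrII:13821582-13821808, occurred in 3 copies, and that of his-10 (H4) and his-9 (H3), chrII:13823376-13823647, also in 3. Each is printed on the plus strand with capitals as above.
his-12/his-11: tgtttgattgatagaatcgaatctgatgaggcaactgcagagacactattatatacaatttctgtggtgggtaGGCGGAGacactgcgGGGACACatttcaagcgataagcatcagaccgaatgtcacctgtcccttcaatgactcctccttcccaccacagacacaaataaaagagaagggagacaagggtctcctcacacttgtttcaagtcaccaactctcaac
his-10/his-9: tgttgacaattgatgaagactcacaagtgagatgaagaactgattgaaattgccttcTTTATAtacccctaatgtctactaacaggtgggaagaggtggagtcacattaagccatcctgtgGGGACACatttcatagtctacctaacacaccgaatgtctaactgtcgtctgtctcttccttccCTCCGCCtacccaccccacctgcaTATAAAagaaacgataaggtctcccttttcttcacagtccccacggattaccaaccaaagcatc

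CCAAT, the NF-Y sequence, was common in histone windows but was not concentrated at the bound summits. It lay in the start window of 70 of 81 histone genes (86.4%), against 77.8% of all protein-coding genes, and in 7 of the 10 bound genes. Within 100 bp it was at 4 of the 9 summits that bound a histone gene, against 36.9% of all main summits. Within 50 bp it was at 1 of 9, against 23.4% of all main summits. In flanking windows centred 500 bp from the main summits the CCAAT shares were 35.2% and 33.9%, so CCAAT was little concentrated at main summits in general. The longer pattern RRCCAATSR was at none of the 9, against 8.38% of all main summits and 1.99% and 2.22% of their flanking windows. It lay in 12 histone windows (14.8%), against 6.57% of all genes, but several of the 12 were copies of each other. Over distinct window sequences it lay in 6 of 62 (9.68%).

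Other core promoter patterns differed in how common they were. TATAAA lay in 61 of 81 histone windows (75.3%), against 62.7% of all genes. The octamer ATTTGCAT, known from vertebrate H2B promoters, lay in 0 of 81, against 6.32% of all genes. CGCGC lay in 9 of 81 (11.1%), against 26.0%. Within 100 bp it was at 3 of the 9 bound summits, against 25.3% of all main summits.

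GTGTCCC and CTCCGCC were read from the windows after the values were seen, so their shares are a description of these genes. GTGTCCC lay in 55 of 81 histone windows (67.9%), against 3.08% of all genes, and CTCCGCC in 45 of 81 (55.6%), against 8.34%. GTGTCCC was in 6 of 10 bound and 49 of 71 unbound histone genes. CTCCGCC was in 8 of 10 bound and 37 of 71 unbound ones, and within 100 bp of 5 of the 9 bound summits, against 8.38% of all main summits. Sense-strand GTGTCCC lay 57 to 139 bp upstream of the start in 35 genes, with a median of 102 bp. Sense-strand TATAAA had a median of 64 bp upstream in 43 genes.

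The 14-base pattern named above overlaps GTGTCCC and was itself read from the summit windows of his-37, his-24 and his-62. On either strand it lay in the windows of 10 protein-coding genes (0.0501% of all windows), of which 8 were histone genes. His-24, his-37, his-61, his-62, his-67 and his-68 were bound, and his-31 (H4) and his-32 (H3) were not. Neither of those had a ranked region in any of the 3 ranked lists, and 17.0% and 16.8% of the stretches in their windows were repeated. Stretches of 44 bases are shown with the pattern in capitals, on the plus strand, from chrV:9546991-9547034, chrX:14490019-14490062, chrIV:7486431-7486474 and chrIV:8334167-8334210, so that the bound genes can be set beside his-32.
his-37: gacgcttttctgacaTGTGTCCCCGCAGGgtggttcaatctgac
his-24: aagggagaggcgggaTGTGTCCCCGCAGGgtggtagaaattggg
his-62: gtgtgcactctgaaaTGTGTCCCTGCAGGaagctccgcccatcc
his-32: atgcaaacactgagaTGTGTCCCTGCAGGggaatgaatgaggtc

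On the sense strand the 14-base pattern lay 60 to 140 bp upstream of the start. It lay within 100 bp of 7 main summits, 4 of them summits at histone genes, and in none of the flanking windows centred 500 bp away. The nuclear genome held 24 matches. The other genes with it were K07C5.13, which was bound at a main-list signal of 375, and fbxb-107, which was not bound. Since the bound genes supplied the pattern, their share is no test of it.

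Genes for histone supply and chromatin assembly, a list chosen with earlier results of these data known, were set beside the histone genes. Their share is therefore no independent test. Of the 22 genes, 6 were bound (27.3%), against 7.41% of all genes. They were unc-85, an ASF1 histone chaperone, at a main-list signal of 402, lin-53, an RbAp46/48 protein, at 517, nasp-2, a NASP homologue, at 200, spr-2, of the NAP and SET family, at 129, nap-1, a nucleosome assembly protein, at 122, and hmg-4, of the FACT complex, at 103. In the replicates unc-85 reached 186 and 245, lin-53 222 and 301, and nasp-2 103 and 97.1. These 3 genes were also bound in each replicate's list. The values were 58.0 and 66.0 at spr-2, 69.8 and 68.7 at nap-1, and 47.2 and 55.9 at hmg-4. Another start was nearer to the summit at lin-53 (nra-2) and at hmg-4 (T20B12.3). The stem-loop binding protein gene cdl-1, which acts on replicative histone mRNAs, was not bound, with ranked signals of 30.2 and 22.4 in replicates 1 and 2. Unbound genes were not all weak by the highest signal of any region overlapping the window, whose summit may lie outside it. The highest were hcp-3, which encodes the centromeric H3 variant CENP-A, at a whole-series ranked signal of 241 (73.6 and 54.0 in the replicates), and xnp-1, an ATRX homologue, at 108 (50.5 and 55.9).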

How the data were processed

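Per the labels and the description files, the authors deposited 8 region lists on ce11, the same assembly as WBcel235, made from 2 replicates. The deposited score is the scaled IDR and the deposited signal is a value the peak caller gave each region. The sources used here give no aligner, caller or read depth, so no depth-based interval is given. The main list held 3890 regions (3879 nuclear), against 1734 and 2433 in the lists of replicates 1 and 2.

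For bound genes, replicate signals are those of the overlapping region of each replicate's ranked list with the nearest summit. For unbound genes, each ranked list gave the highest signal of any region that overlapped the window. Those values were taken list by list, so they need not be of the same region. Starts are of all protein-coding transcripts (Ensembl release 115), names are from RefSeq (WBcel235), and coordinates are 1-based. Calling, pattern search and repeat counts were checked on simulated data. Python 3.11.15 and numpy 2.4.6 were used. No test was run, since there was 1 group, and shares stand beside the share over all genes.

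The members and lists were chosen with earlier results of these data known. Named were the bound histone and related genes, those bound in another thresholded list, the 10 unbound with the highest ranked signal, and members paired with a bound gene. His-69, his-70, his-71, his-74, hil-7, his-31, his-32, cdl-1, hcp-3, xnp-1, K07C5.13, fbxb-107, and members near the window's edge or shown for sequence, were added after their values were seen.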

Additional observations from a re-analysis of the deposited data

How the results depend on the processing

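The 10 bound histone genes fell to 5 without replicate 1 and to 5 without replicate 2, to 4 with regions in both replicates' lists and to 6 at a score of 1000. Leaving out a replicate here means using the other replicate's own thresholded list, which is shorter than the main list. Over all protein-coding genes the 1480 bound fell to 1022, 735, 609 and 1148 in the same 4 settings. They ranged from 7 to 14 under the other list, other windows, nearest start and 1 start per gene. The clustered count of 7 was 3 without either replicate, 3 in both lists, 3 at a score of 1000, 11 with 1000 bp upstream and 4 by nearest start. Distances of 1 kb and 5 kb, or distance alone, kept it at 7. The 3 isolated, linker and variant genes fell to 1 in both lists. Bound loci went from 6 to 3 in both lists and to 10 with 1000 bp upstream. Related genes went from 6 to 3 to 4 when a replicate was left out, and to 3 in both lists. The CCAAT share of 86.4% was 53.1% in windows from 250 bp upstream to 50 bp downstream (all genes 45.7%) and 14.8% for the longer pattern. The 4 summits with CCAAT were 1 within 50 bp, where 23.4% of all main summits had it. With 50-base stretches, 42 genes rather than 44 were at 50% repeated or more. Counting only the 37 histone genes under 50% repeated, an alternative chosen after seeing the data, left 10 bound (27.0%). That count was fixed beforehand, since no histone gene at or above 50% was bound. No paired analysis was possible because there was 1 group. Read depth is unknown, so a low or missing signal is no measure of absence.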
